A study of Homo sapiens with 10 samples.

Results

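Short-range promoter interactions are contacts between a captured promoter fragment and a nearby fragment of the same chromosome. They were selected on measured values, as pairs with a CHiCAGO score of at least 12 in the ESC or the NEC list. The midpoints of both fragments had to lie under 50 kb apart, and the other fragment, called the promoter-interacting region (PIR), could not itself be a captured promoter. This gave 14393 of the 154580 different interactions in the merged lists, with 10141 in ESCs and 8770 in NECs. The 5623 members found in the ESC list alone, the 4252 in the NEC list alone and the 4518 in both started from 5891 promoter fragments and reached 11445 PIRs.

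The data come from promoter capture Hi-C (PCHi-C) and RNA-seq of H9, a single human embryonic stem cell line, and of neuroectodermal cells (NECs) made from it and harvested on day 7 of differentiation. Each assay had 2 biological replicates per cell type. None of the groups carried an edited allele, and the ESC state differed from the NEC state by the differentiation protocol, so changes of medium and of cell identity cannot be told apart. Conventional Hi-C of both cell types was not used here.

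Enhancers and promoters can meet in the nucleus when the chromatin fibre between them folds. In PCHi-C the DNA is crosslinked, cut with the enzyme HindIII and ligated, and ligation products that hold a promoter fragment, the bait, are pulled out with RNA probes. Neighbouring fragments meet often by random movement of the fibre alone, so CHiCAGO scores a pair by how far its reads exceed a background that falls with distance, and the excess is hardest to see close to the promoter. During neural induction, pluripotency genes are shut down and neural transcription factors are switched on, often with changes at enhancers within or near the gene.

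Stretches of 6 PIRs are printed, chosen because a searched motif occurred in them outside annotated exons. Of these, 4 belong to strong interactions that both replicates of ESCs or of NECs, and no list of the other cells, called. The other 2 belong to strong ones called in all 4 replicates. Each runs 5′ to 3′ on the plus strand of GRCh37 and holds 121 bases, with capitals marking an exact match, on either strand, to the octamer ATGCAAAT of POU factors or, for PYGO1, to the SOX motif AACAATGG. A match says only that these letters occur. Of 18 PIRs searched, 6 held a match outside annotated exons, and among all fragments under 50 kb from a bait with 1 gene start 22.7% held the octamer and 11.3% the SOX letters.
MLLT10 PIR, called in NECs only, chr10:21796654-21796774: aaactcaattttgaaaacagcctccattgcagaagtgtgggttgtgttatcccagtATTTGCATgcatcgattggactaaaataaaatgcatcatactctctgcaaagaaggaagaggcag
PTPRJ PIR, called in NECs only, chr11:47963347-47963467: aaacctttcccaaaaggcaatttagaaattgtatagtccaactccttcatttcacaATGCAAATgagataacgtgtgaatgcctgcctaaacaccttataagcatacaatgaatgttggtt
PYGO1 PIR, called in NECs only, chr15:55897273-55897393: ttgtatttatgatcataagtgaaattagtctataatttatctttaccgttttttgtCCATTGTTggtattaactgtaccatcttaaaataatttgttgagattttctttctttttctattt
ACOXL PIR, called in ESCs only, chr2:111445402-111445522: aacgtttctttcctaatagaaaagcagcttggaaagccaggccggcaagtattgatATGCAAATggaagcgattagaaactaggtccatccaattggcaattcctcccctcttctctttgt
ISG20L2 and RRNAD1 PIR, called in all replicates, chr1:156653301-156653421: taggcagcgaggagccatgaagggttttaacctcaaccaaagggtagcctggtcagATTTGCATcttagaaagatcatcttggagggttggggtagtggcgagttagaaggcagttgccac
HIST1H3E PIR, called in all replicates, chr6:26219532-26219652: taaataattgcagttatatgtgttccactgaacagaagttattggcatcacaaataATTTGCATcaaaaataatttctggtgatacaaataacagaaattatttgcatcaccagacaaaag

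Only 1 match per stretch is in capitals. Matches to the octamer, the SOX motif and the CTCF letters AGGGGGCGC were counted together in each whole fragment. By this count the MLLT10 fragment holds 3 matches, and the ACOXL, the ISG20L2 and RRNAD1 and the HIST1H3E fragments hold 2 each. The PTPRJ and PYGO1 fragments hold 1 match each. The second octamer of the HIST1H3E fragment lies in the printed stretch, in lower case. The MLLT10, PTPRJ and PYGO1 stretches lie in fragments that overlap no annotated gene. The ACOXL fragment lies in an intron of the gene ENSG00000289202. The HIST1H3E and the ISG20L2 and RRNAD1 stretches lie outside exons in fragments that also touch an exon. The scores of these interactions are given with their genes.

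Members made up 15% of the 67559 ESC calls that joined a bait to a non-bait fragment of the same chromosome, and 13% of the 67606 such NEC calls. The replicate lists held fewer, with 3309 members in ESC replicate 1, 3023 in ESC replicate 2, 2817 in NEC replicate 1 and 2170 in NEC replicate 2. These were 4.85%, 5.25%, 3.92% and 3.96% of the corresponding calls of each replicate, so the share of close contacts was about 3 times as high in the lists made from both replicates together. The read numbers behind a score are not given in the lists, so the depth of each replicate is unknown. Of the scores, 38% in ESCs and 39.5% in NECs were under 13, against the list minimum of 12. Median scores were 13.5 and 13.4, and the highest were 42.58 and 46.03. At the distance limit, the 3 ESC members just inside 50 kb had scores of 13.12, 12.21 and 13.65 and the 3 pairs just outside 16.47, 12.67 and 12.24. In NECs those just inside had 12.80, 12.98 and 13.55 and those just outside 12.11, 13.52 and 14.27.

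Most short-range members were seen only when the replicates were combined. In ESCs 11.9% (Wilson 95% interval 11.3 to 12.6) of members were also called in both replicate lists, and 57.0% in neither. In NECs 6.40% (5.90 to 6.93) were called in both, and neither replicate list held 59.6%. Members share baits and PIRs, and the intervals cover nothing but counting error. The corresponding shares in both replicates were 15.4% and 15.7% for pairs 50 to 200 kb apart, 18.5% and 20.5% at 200 kb to 1 Mb, and 27.9% and 22.6% beyond 1 Mb, for ESCs and NECs. The score marked the difference, with a median of 18.6 in ESCs and 19.1 in NECs for members in both replicates and of 12.8 and 12.9 for those in neither. By this measure support rose with distance, and members had the lowest of the 4 distance ranges in both cell types. Overlap between the replicate lists themselves did not follow that order. Shared pairs over all pairs of the 2 ESC replicate lists made up 23.6% under 50 kb, 18.3% at 50 to 200 kb and 8.86% at 200 kb to 1 Mb, and those of the NEC lists 12.7%, 17.5% and 10.4%. This comparison is a description, because the same scores chose the members.

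**Figure D1:**
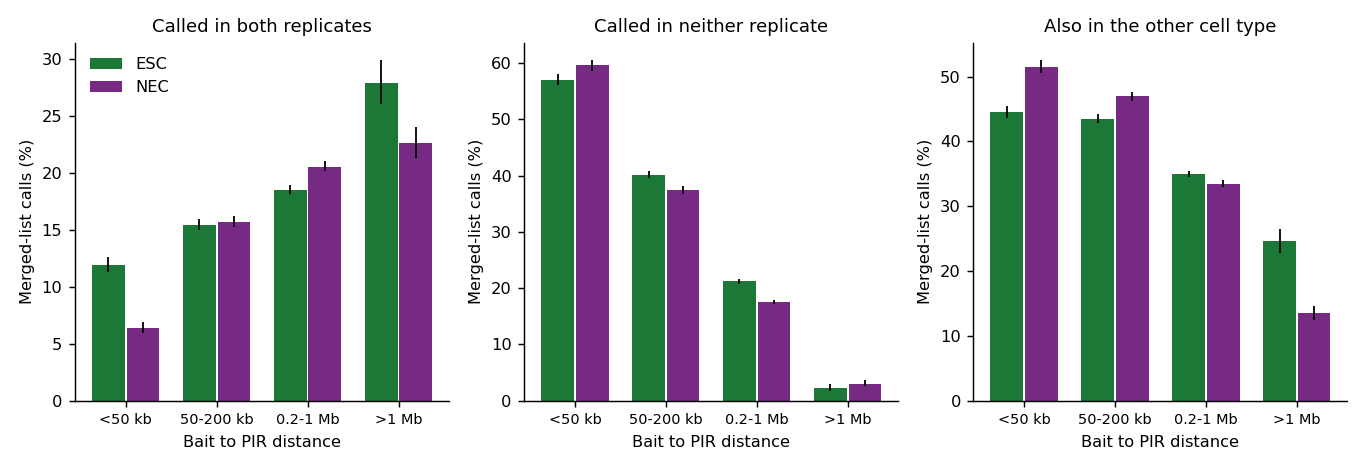
Percentage of merged-list calls that were also called in both replicate lists (left), in neither (middle) and in the other cell type's merged list (right), by distance between bait and PIR, for ESCs (green) and NECs (purple), with Wilson 95% intervals as lines. Under 50 kb, 57.0% of ESC calls and 59.6% of NEC calls were in neither replicate list, against 2.27% and 3.04% beyond 1 Mb.

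Agreement between cell types ran the other way. Of the ESC members, 44.6% were also called in NECs, and 51.5% of the NEC members were also called in ESCs. At 50 to 200 kb these shares were 43.5% and 47.0%, so the ESC share there was close to that of members. At 200 kb to 1 Mb they were 35.0% and 33.5%, and beyond 1 Mb 24.6% and 13.5%. A pair missing from a list had a score under 12 there, which does not show that the contact was absent.

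The replicates did not sort by cell type. As shared pairs over all pairs of 2 replicate lists, members of ESC replicate 1 and NEC replicate 1 overlapped by 20.3%, ESC replicate 2 and NEC replicate 1 by 17.8%, ESC replicate 2 and NEC replicate 2 by 12.9%, and ESC replicate 1 and NEC replicate 2 by 10.3%. NEC replicate 2 stood apart from the other 3. Its members lay a median of 15.1 kb from the bait, against 19.9 to 24.7 kb in the others, and 46% of them were the next fragment but one from the bait, against 22.2% to 30.1%.

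Among interactions of either list that joined a bait to a non-bait fragment of the same chromosome, 3.59% were called in both NEC replicates and neither in an ESC replicate nor in the merged ESC list. Members with this pattern numbered 92 of 14393, or 0.639%. The reverse pattern, both ESC replicates and nothing in NECs, held for 3.19% of all such interactions and for 258 members, or 1.79%. All 4 replicates called 2.99% of all such interactions and 231 members, or 1.60%. Members were below the background in each pattern, and the ESC-specific and retained sets were closer to it than the NEC-specific set.

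The short-range members were spread through the whole window. They lay a median of 21.2 kb from the bait in ESCs and 20.5 kb in NECs, with 4 HindIII fragments as the median step. No member was the fragment directly beside its bait. The fragment after that, at 2 steps, held 23% of ESC and 30.8% of NEC members. To compare calls with the number of fragments on offer, calls were divided by all non-bait fragments under 50 kb from the 14451 baits that hold a single gene start. Of these 313491 pairs, 2.10% were called in ESCs and 1.87% in NECs. Under 5 kb the call rates were 3.85% in ESCs and 1.67% in NECs, at 5 to 10 kb 3.77% and 3.62%, and at 45 to 50 kb 1.47% and 1.26%. Under 5 kb the replicate lists gave 0.840% and 2.99% in ESCs and 0.311% and 0.731% in NECs, so ESC replicate 2 stood apart there and ESC replicate 1 was close to NEC replicate 2. By steps instead of bases, 5.69% of fragments at 2 steps were called in ESCs and 6.69% in NECs, and 2.52% and 1.76% at 5 steps.

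Most baits with a member held fewer than 5, and a smaller number held many. In ESCs 1997 baits had 1 member, 1548 had 2 to 4, 484 had 5 to 9 and 84 had 10 or more. In NECs these numbers were 2595, 1518, 299 and 40. Baits with at least 5 members held 39.8% of ESC and 26.1% of NEC members. In the replicate lists this share was 26.8% and 15.2% in ESCs, 19.1% in NEC replicate 1 and 3.87% in NEC replicate 2, so NEC replicate 1 lay between the ESC replicates. Of all members, 38.3% and 31.4% lay directly beside another PIR of the same bait. Such neighbours are not separate observations of a contact. Seen from the other end, 19.8% of ESC PIRs and 13.4% of NEC PIRs were reached by at least 2 baits. In both merged lists chromosome 17 had the most members for its baits, with 1.17 per bait in ESCs and 0.758 in NECs, and chromosome 16 had 0.822 and 0.556. Chromosome 17 also led in ESC replicate 1 with 0.416, in ESC replicate 2 with 0.324 and in NEC replicate 1 with 0.281, but not in NEC replicate 2, where it had 0.120 and chromosome 14 had 0.171. Chromosome 13 had 0.117 and 0.151, chromosome 18 had 0.121 and 0.164, and chromosome 4 had 0.153 and 0.145.

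Fragments that hold the end of the bait's own gene were called more often than other fragments. They were called in 6.19% of cases in ESCs (Wilson 95% interval 5.57 to 6.88) and in 5.82% in NECs (5.22 to 6.50). Fragments upstream of the gene start were called in 1.98% and 1.78%, those inside the gene in 2.05% and 1.77%, and those past its end in 2.14% and 1.89%. The order held in every replicate, where gene ends were called in 1.73% and 2.25% of cases in the ESC replicates and in 1.59% and 1.48% in the NEC replicates. Upstream fragments were called in 0.624%, 0.584%, 0.538% and 0.436%. Of the 319 ESC members at gene ends, 52.4% (46.9 to 57.8) were also in the NEC list, against 44.3% of the other members. Of the 300 NEC members at gene ends, 55.7% were also in the ESC list, against 50% of the others, and these intervals overlapped. Support in both replicates was near that of the other members, at 13.5% (10.2 to 17.7) against 10.7% in ESCs and 6.0% against 6.04% in NECs.

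Fragment length moved with this result. Gene-end fragments had a median length of 5341 bp, against 2108 to 2265 bp for the other positions, and longer fragments were called more often everywhere. Within fragments of 3635 to 66605 bp, gene ends were called in 7.29% of cases in ESCs, against 3.68% upstream, 4.08% inside and 4.03% past the end. The NEC values were 7.12% against 3.55%, 3.8% and 3.73%. In fragments of 1294 to 3634 bp the ESC values were 4.83% against 1.88%, 1.87% and 2.01%, and those of NECs 3.84% against 1.45%, 1.39% and 1.67%. The order was therefore the same within both length ranges. The positions are not compared at equal distances from the bait here, and call rates also changed with distance. In the shortest range only 377 gene-end fragments were on offer, and 0.796% of them were called in ESCs.

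**Figure D2:**
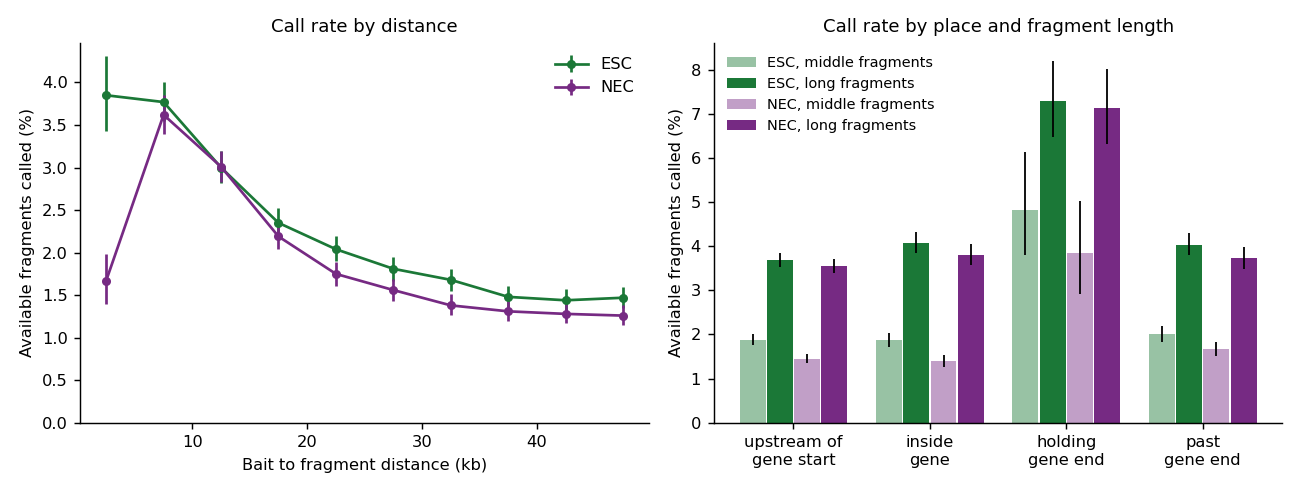
Percentage of available fragments called as members by distance from the bait in kb (left) and by position relative to the gene of the bait within middle (1294 to 3634 bp) and long (3635 to 66605 bp) fragments (right), for ESCs (green) and NECs (purple), with Wilson 95% intervals as lines. Long fragments that hold the gene end stood at 7.29% and 7.12%, above all other bars of the same cell type and length, and under 5 kb the NEC rate of 1.67% was below the ESC rate of 3.85% (merged lists).

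PIRs of the short range were mostly genic. They overlapped an exon in 63.0% of cases in ESCs and 58.0% in NECs, against 54.3% and 51.5% at 50 to 200 kb and 34.9% and 30.3% beyond 1 Mb. Intergenic fragments made up 15.5% and 19.7% under 50 kb and 35.6% and 35.8% beyond 1 Mb. These shares were not taken over all fragments on offer under 50 kb. The part of nearness to a gene start in them was therefore not tested. A protein-coding gene overlapped 75.1% and 69.5% of the PIRs, and only 1.81% and 1.51% held the start of one, since captured promoters were left out by rule. Base composition followed the same order. Among the fragments on offer at baits with a single gene start, those called had 47.4% GC in ESCs and 47.2% in NECs, against 42.4% for those not called in the same cell type. They had 15.8 and 15 CpG per kb, against 10.8.

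Short motifs were counted on both strands in the same sets of called fragments and fragments not called. AGGGGGCGC, core letters of the motif of the insulator protein CTCF, occurred 0.0616 times per 10 kb in fragments called in ESCs and 0.0607 in those called in NECs, against 0.0234 in fragments not called, and was present in 0.783% of all fragments on offer. The octamer occurred 0.536 and 0.577 times, against 0.928. The SOX letters occurred 0.279 and 0.285 times, against 0.390. The palindrome GGAATTCC, searched for scale and held by 4.69% of fragments, differed little, at 0.146 and 0.152 against 0.148. The GC-rich motif was thus denser in called fragments and the AT-rich ones sparser, and called fragments had more GC. The part of base composition in these densities was not tested, and a count of letters says nothing about binding of a factor.

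Genes at baits with short-range members were expressed more highly in ESCs than genes at baits that had other calls only. Expression was taken as log2(CPM + 0.5), with CPM the counts scaled to library size, for genes whose start lies in a bait with any call. The ESC median was 3.72 and 3.66 in the replicates for 4700 genes with a member and 2.26 and 2.18 for 13584 genes without. It rose with the number of members, from 3.41 with 1 member to 3.75 with 2 to 4 and 4.30 with 5 or more. Among protein-coding genes alone, it was 4.63 with a member and 3.72 without. In NECs the medians were 2.73 and 2.69 for 4826 genes with a member and 2.92 and 2.83 for 13837 genes without, so the ESC order was not seen. Genes at baits with 5 or more NEC members had the higher medians here too, at 3.71 and 3.77. Among genes with at least 10 counts, the medians with and without a member were 4.61 and 3.89 in ESCs. In NECs they were close, at 4.25 and 4.21. In bulk samples, fewer cells that express a gene and less RNA per cell cannot be told apart.

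Call rates told the same for ESCs. When genes at baits with a single start were split into quartile groups of expression, the ESC rate was 1.18%, 1.87%, 2.16% and 3.39% from the lowest to the highest group. The NEC rate was 1.42%, 1.93%, 1.69% and 2.54%. From the lowest to the highest group the rate went from 0.307% to 1.09% in ESC replicate 1, from 0.492% to 0.827% in ESC replicate 2 and from 0.375% to 0.887% in NEC replicate 1. In NEC replicate 2 it fell from 0.531% to 0.431% in the same comparison.

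**Figure D3:**
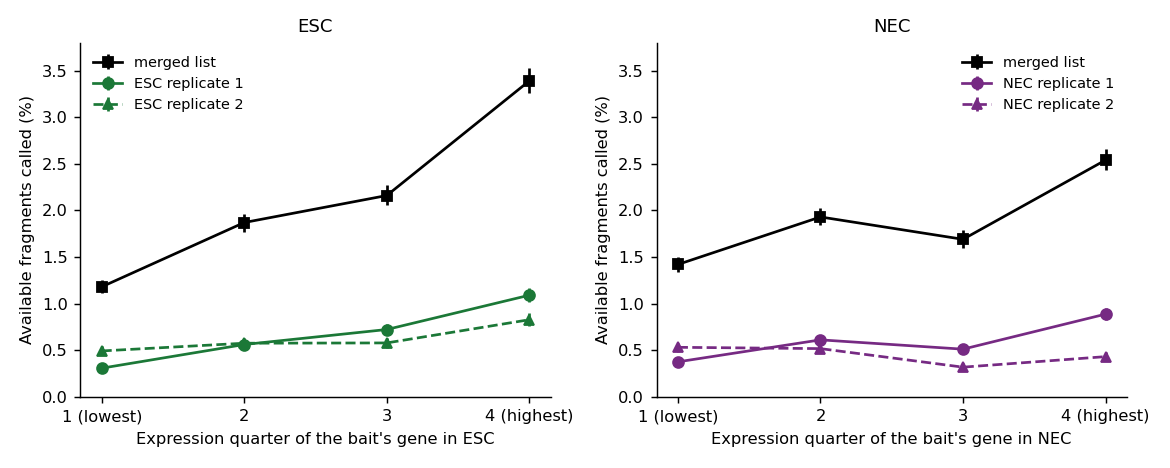
Percentage of available fragments under 50 kb called as members, by quartile group of expression of the gene at the bait, in ESCs (left) and NECs (right), for the merged list (black) and each replicate (coloured), with Wilson 95% intervals as lines. The merged ESC list went from 1.18% to 3.39%, and NEC replicate 2 was the 1 list of the 6 that ended lower than it began, at 0.431% after 0.531%.

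Between the cell types, genes with NEC-only members were called higher in NECs more often than other genes. A gene was called when its log2 fold change lay beyond 1.5 in either direction and edgeR's quasi-likelihood test gave an adjusted p (Benjamini-Hochberg) under 0.05. Of 17564 tested genes, 1997 (11.4%) were higher in NECs and 1700 (9.68%) were lower. Among 1467 genes at baits with NEC-only and no ESC-only member, 16.0% were higher (Wilson 95% interval 14.2 to 18.0) and 8.59% lower. Among 2044 genes at baits with ESC-only and no NEC-only member, 7.53% were higher (6.47 to 8.76) and 7.44% lower, so the share of lower genes at ESC-only members was not above that of all genes with this fold limit. Without a fold limit the order turned, with 32.8% lower at ESC-only members against 29.7% of all tested genes. With NEC replicate 1 in place of the merged NEC list, which leaves out NEC replicate 2, these shares were 15.9% higher at NEC-only and 8.09% lower at ESC-only members. Genes whose members were all shared gave 10.4% higher and 10.6% lower of 519, and genes at baits with calls but no member gave 11.2% and 8.78% of 9583.

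The share went further from the background where more members changed. Of 147 genes with at least 3 more NEC-only than ESC-only members, 23.1% were higher (17.0 to 30.6) and 8.84% lower. Of 489 genes with at least 3 more ESC-only members, 6.95% were higher and 6.75% lower. The small replicated sets gave 15.4% higher and 3.85% lower of 52 genes at NEC-only members, 4.98% and 7.46% of 201 genes at ESC-only members, and 16.7% and 9.72% of 144 genes at members called in all 4 replicates. Genes of one bait share their members and are not replicates, so no p-value is given for these shares. The ESC libraries for RNA-seq shared a sequencing lane and the NEC libraries shared another lane, and lane and cell type cannot be told apart.

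**Figure D4:**
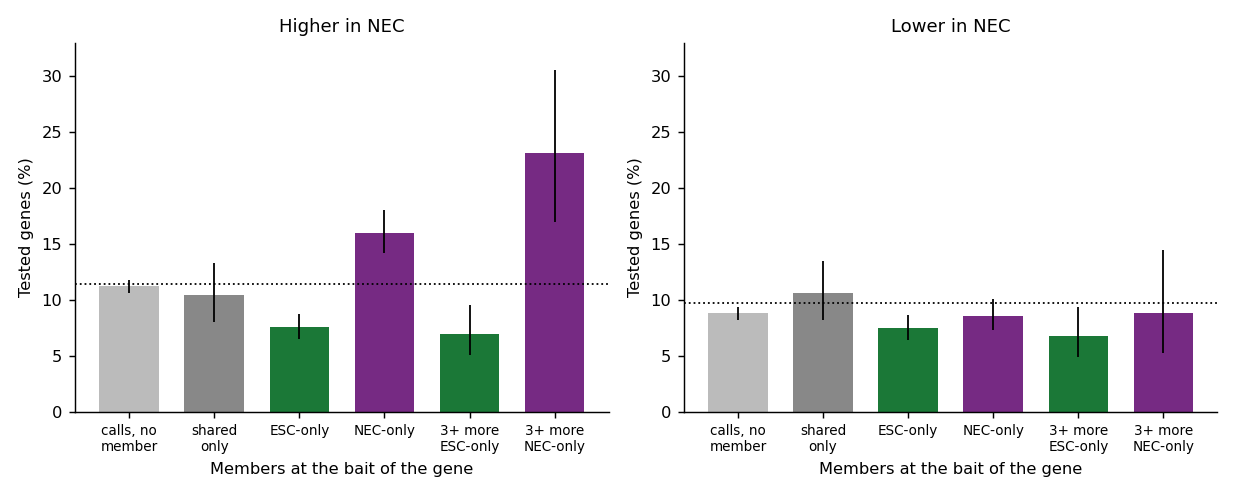
Percentage of tested genes called higher (left) or lower (right) in NECs, grouped by the members at their bait, with Wilson 95% intervals as lines and the share over all 17564 tested genes as a dotted line. Genes with NEC-only members stood at 16.0% higher and those with at least 3 more of them at 23.1%, above the 11.4% of all genes, while the bars for lower genes lay from 6.75% to 10.6%.

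The strongest members of the pattern called in both NEC replicates and in no ESC list were led by LGALS7B, a galectin gene. Its bait on chromosome 19 reached a fragment at chr19:39257980-39264620, 22.3 kb away, with scores of 16.37 and 36.98 in the NEC replicates and 46.03 in the merged list, the highest of all members. The fragment overlaps LGALS7, a near-identical copy, so reads may be split between the copies and the call is uncertain. LGALS7B itself had 1, 1, 2 and 2 counts in the 4 libraries, with ESC replicates first, and was not tested.

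PRTG, which encodes protogenin, an immunoglobulin-type receptor of the early neural tube, changed in contacts and in RNA. Its bait at chr15:56033210-56044555 had no ESC member in any list and 11 in NECs, with 8 in replicate 1 and 4 in replicate 2. The strongest lay 22.3 kb upstream of the bait, in an intergenic fragment at chr15:56059494-56062777, with scores of 16.28, 14.63 and 25.04 in the replicates and the merged list. PRTG had 329 and 258 counts in the ESC libraries and 25476 and 29297 in the NEC libraries. The groups did not overlap, and PRTG rose by 6.43 on the log2 scale (SE 0.26, adjusted p = 1.76e-05 by edgeR's quasi-likelihood test with Benjamini-Hochberg adjustment).

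Beside PRTG on chromosome 15, PYGO1, a coactivator of Wnt signalling, had no ESC member and 2 in NECs. The one printed above, at chr15:55894867-55897906, was 11.6 kb from the bait and had scores of 17.18 and 14.58 in the NEC replicates. PYGO1 rose from 52 and 42 counts to 360 and 354, with a log2 fold change of 2.82 (SE 0.26). SERPING1, the gene of the C1 inhibitor of complement, had 6 ESC and 10 NEC members, and its NEC-only contact 45.2 kb away in an intron of MIR130AHG scored 17.13 and 13.88. SERPING1 rose by 1.63 on the log2 scale (SE 0.13), from 566 and 669 counts to 2091 and 1934. These genes rose beside gained contacts, and other genes of the same set did not.

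PTPRJ, a receptor-type tyrosine phosphatase, had 4 ESC and 8 NEC members, and its printed contact 41.1 kb upstream scored 18.66 and 16.56 in the NEC replicates. Its counts of 807, 999, 962 and 1087 amounted to 0.10 on the log2 scale (SE 0.09) and were not called. MLLT10, a partner of the histone methyltransferase DOT1L, had no ESC and 3 NEC members. The fragment printed above scored 13.32, 15.55 and 25.59 in NEC replicates and merged list, and the RNA had 79.5 and 81.5 CPM in ESCs and 67.3 and 72.7 in NECs, with a log2 fold change of -0.20 (SE 0.09). Of the 6 genes of this set, 3 were therefore called higher, 2 were not called and 1 was not tested. Over all tested genes 11.4% were higher, and this set was picked by score.

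The strongest contact in both ESC replicates and in no NEC list was that of RP11-148B6.1, now named MIR302CHG, the host transcript of the miR-302 microRNAs of pluripotent cells. Its bait at chr4:113569452-113575739 met a fragment 4.3 kb away at chr4:113567831-113568685, which lies within the gene itself and overlaps LARP7, which runs on the other strand. Scores were 21.83 and 30.09 in the replicates and 38.08 in the merged list. The RNA fell from 8448 and 11651 counts to 568 and 1968, with a log2 fold change of -3.11 (SE 0.46). Counting was without regard to strand, so reads of this gene and of LARP7 cannot be told apart where they overlap.

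ACOXL, which encodes an acyl-CoA oxidase-like protein, had 15 ESC and 3 NEC members. The ESC replicates held 8 and 2 of them, and NEC replicate 1 none and NEC replicate 2 held 2. The contact printed above, 44.8 kb upstream, scored 17.51 and 16.25 in the ESC replicates. ACOXL had 252 and 339 counts in ESCs and 10 and 34 in NECs, a log2 fold change of -3.84 (SE 0.40). RP1-122O8.7, a noncoding RNA gene beside MDN1, had 12 ESC and 2 NEC members and fell by 2.18 on the log2 scale (SE 0.29), from 65 and 96 counts to 19 and 18. Members and RNA were both lower in NECs at these loci.

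COPS6, a subunit of the COP9 signalosome, and TBC1D10B, a GTPase-activating protein for Rab proteins, were not called. COPS6 had 2 ESC members and none in NECs, and its RNA stood at 108 and 101 CPM in ESCs and 97.3 and 90.8 in NECs. TBC1D10B had 11 ESC and 7 NEC members and 38.6, 39.2, 52.2 and 45.7 CPM. GATA6, an endoderm transcription factor, had 1 ESC member, a fragment within the gene 7.1 kb from the bait with scores of 14.49 and 12.86. Its counts were 27 and 170 in the ESC libraries and 24 and 28 in NECs, so the ESC libraries differed from each other by more than ESC replicate 1 differed from NECs. AC091588.1, which starts in the same bait, had 4, 8, 1 and 1 counts and was not tested. Of the 7 genes of the ESC set, 3 were called lower and none higher. Over all tested genes 9.68% were lower. The set was picked by score, and among genes of all replicated ESC-only members the share of lower genes was below that.

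Among contacts called in all 4 replicates, the highest mean of the ESC and NEC merged scores was that of the bait of HEXIM2 and AC002117.1, which met a fragment of HEXIM1 28.9 kb away. HEXIM1 and HEXIM2 encode related inhibitors of the elongation factor P-TEFb. The contact scored 42.58 and 39.11 in the merged lists, 23.07 and 23.89 in ESC replicates and 24.01 and 17.92 in NEC replicates, and HEXIM2 RNA was 6.73, 7.12, 6.74 and 6.44 CPM, with no difference called. NOP2, an RNA methyltransferase of the nucleolus, met a fragment of the remodeller gene CHD4 with 31.31, 27.53, 24.89 and 16.81. It had 11 ESC and 9 NEC members, and its RNA differed by -1.14 on the log2 scale (SE 0.15), under the fold limit.

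The bait of ISG20L2, a nucleolar exonuclease gene, and RRNAD1 met its fragment 40.7 kb away with 22.25, 22.06, 29.57 and 18.28. HIST1H3E, a replication-dependent histone H3 gene, met the fragment 9.5 kb away with 24.55, 29.37, 21.64 and 14.74. Histone genes of this cluster resemble each other, so the HIST1H3E call is uncertain. The bait of AC005726.6 and RP11-192H23.4 reached a fragment 9.8 kb away with 23.58, 21.33, 19.95 and 14.72. In these 3 contacts and those of HEXIM2 and NOP2, NEC replicate 2 had the lowest score of the 4.

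EN2, a transcription factor of the midbrain and hindbrain, had 7 ESC and 9 NEC members, of which 6 were shared. Its bait at chr7:155247684-155262051 met a fragment of CNPY1, a neighbouring gene, at chr7:155298598-155301715 and 45.3 kb away. The scores of 14.66 and 18.42 in ESC replicates were below those of 23.62 and 26.25 in NEC replicates, and the merged scores were 30.68 and 42.96. Scores depend on the unknown depth, so their difference was not tested. EN2 had 0 counts in both ESC libraries and 124 and 25 in NECs, which is at least 49.1-fold higher against a floor of 3 counts over the ESC libraries (adjusted p = 0.00862, edgeR's quasi-likelihood test with Benjamini-Hochberg adjustment). The contact was thus called in ESCs, where no RNA of the gene was counted.

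Of the other contacts with high scores, that of HIST2H2AA3, a histone H2A gene with a near-identical copy, reached a fragment 2.5 kb away with 40.36 and 35.58 in ESC replicates and 17.30 in NEC replicate 1, and was not called in NEC replicate 2. The call is uncertain because of the copy. The bait of CIC, PAFAH1B3 and PRR19 had 2 ESC and 5 NEC members, and 2 of them scored 40.95 and 40.71 in NECs, where replicate 1 gave 40.56 and 37.45 and replicate 2 gave 12.07 and 12.36. NEC replicate 1 carried these scores. CIC, a transcriptional repressor, stood at 65.9 and 59.0 CPM in ESCs and 114 and 118 in NECs, a log2 fold change of 0.89 (SE 0.09), under the fold limit.

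TXNIP, a thioredoxin-binding protein that limits glucose uptake, had 5 ESC and 9 NEC members. Its strongest contact, intergenic and 15.7 kb away, scored 18.71 and 16.75 in ESC replicates and 26.09 and 16.54 in NEC replicates. TXNIP had 209 and 127 counts in ESCs and 6190 and 3226 in NECs, with a log2 fold change of 4.72 (SE 0.50). Both NEC libraries were above both ESC libraries. All 5 ESC members were shared with NECs.

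The baits with the most NEC members were mostly at genes with little or no RNA, and those with the most ESC members were not. RP11-481C4.1, a noncoding RNA gene on chromosome 17, had 25 ESC and 13 NEC members, with 16, 10, 4 and 7 in the replicates, and 0 counts in all 4 libraries. The bait of WFIKKN2, a gene of a secreted protease inhibitor on the same chromosome, had 16 ESC and 12 NEC members and 14, 4, 1 and 1 counts. The olfactory receptor genes OR4K2 and OR4K5 had 10 and 17 members and 11 and 16 in ESCs and NECs, with 0 counts in every library. PPYR1, a neuropeptide Y family receptor gene, had 14 and 18 members and 3, 2, 2 and 0 counts. Olfactory receptor genes occur in similar copies, so their calls may be affected by read mapping, which was not tested.

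The other baits of this group held expressed genes. That of CYBASC3 and TMEM138 had 18 ESC and 13 NEC members, with 14 and 13 in the ESC replicates, 8 in NEC replicate 1 and 0 in NEC replicate 2. CYBASC3, a cytochrome b561 family gene, had 27.5, 29.0, 21.1 and 21.9 CPM. BCL9, a coactivator of beta-catenin, had 16 and 11 members, of which no more than 7 stood in any replicate list, and its log2 fold change of 0.53 (SE 0.08) was under the fold limit. The bait of AC005726.6 and RP11-192H23.4 had 15 and 11 members, with 13, 11, 7 and 1 in the replicates. NEC replicate 2 held no more than 1 member at each of these 3 baits.

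Pluripotency genes had fewer short-range members in NECs, and so did the broadly expressed reference genes described below, whose RNA changed little. Of 24 genes of the list, 20 started in a bait and 11 in a bait with a member. These 11 had 27 members in ESCs and 10 in NECs, with 7 shared. At all baits of the list, and counting pairs absent from the merged lists too, the ESC replicate lists held 9 and 9 short-range calls. Neither NEC replicate list held any. Of the 11, 9 were called lower in NECs and none higher, with a median log2 fold change of -4.71 against 0.01 over all tested genes. In the whole list 18 of 24 were lower, and the list marks the ESC identity of the samples. LEFTY1, an inhibitor of Nodal signalling, had 9 ESC members, 6 in replicate 1 and 2 in replicate 2, and 1 NEC member in neither replicate. LEFTY1 was placed at this bait by the outer end of its annotated span, chr1:226073982-226099082. Other starts within the span were not examined, so these need not be contacts of the promoter that LEFTY1 uses. Its RNA went from 382 and 361 CPM to 0.140 and 0.405, a change of -10.34 on the log2 scale (SE 0.23, adjusted p = 5.87e-06, edgeR's quasi-likelihood test with Benjamini-Hochberg adjustment).

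The related LEFTY2 had 5 ESC and 2 NEC members and fell by 9.20 on the log2 scale (SE 0.15), from 240 and 251 CPM to 0.374 and 0.446. NODAL, the ligand itself, had 2 ESC members and none in NECs, and its counts of 1300 and 3995 fell to 13 and 8. FGF2, a growth factor that maintains human ESCs, had 4 ESC members and none in NECs and fell by 2.74 (SE 0.13). Replicate support was thin, since 2 of the FGF2 members were in ESC replicate 1 and none in ESC replicate 2. LIN28B, an RNA-binding protein, had 0 ESC and 2 NEC members and was not called, with 152 and 180 CPM in ESCs and 147 and 142 in NECs.

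Neuroectoderm genes had similar numbers of short-range members in the merged lists. Of 35 genes, 16 started in a bait with a member, with 25 different members in ESCs, 24 in NECs and 10 in both. Counting pairs absent from the merged lists too, the replicate lists held 4 and 9 short-range calls in ESCs and 4 and 4 in NECs. Of these genes 10 were called higher in NECs and 2, FGF8 and HESX1, lower, with a median log2 fold change of 3.28. In the whole list 25 of 34 tested genes were higher. The number of members was larger in NECs for 7 genes and smaller for 6. PAX6, a transcription factor of the early neural plate, was among the latter, with 5 ESC members and 1 in NECs. ESC replicate 1 held none of the 5 and ESC replicate 2 held 2, and the NEC member was in no NEC replicate list. PAX6 rose from 31 and 28 counts to 1848 and 1304, with a log2 fold change of 5.67 (SE 0.33).

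SOX1, another neural plate factor, also had 2 ESC members and none in NECs while its RNA went from 2.81 and 2.39 CPM to 125 and 120. Neither SOX1 member was in an ESC replicate list. CRABP1, a retinoic acid-binding protein, had 5 and 7 members, with all 5 shared, and rose by 3.22 (SE 0.36). ZIC1, a zinc-finger factor of the dorsal neural tube, had 1 ESC and 4 NEC members, none of the latter in a NEC replicate, and its counts were 2, 6, 515 and 149. The member of the bait shared by ZIC2 and ZIC5 was NEC-only and in both NEC replicates, with 12.03 and 14.03, and neither gene was called. In this list, gains of RNA went with more members at some genes and fewer at others.

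Neural crest genes, markers of a cell type that can arise at the border of the neural plate, included 6 of 14 with a member, with 13 members in ESCs and 10 in NECs. Of the 6, 5 were called higher in NECs and none lower, against 11.4% higher and 9.68% lower over all tested genes. The median log2 fold change was 6.92, or 6.84 with TFAP2B set to its bound. PAX7, a neural crest and dorsal neural factor, had 8 ESC and 5 NEC members, of which 4 were shared, and its counts were 0 and 1 in ESCs and 272 and 53 in NECs. TFAP2B had 2 ESC members and none in NECs, and 0 counts in both ESC libraries against 339 and 36 in NECs, which is at least 124-fold higher. For all 6 genes NEC replicate 1 had the higher CPM, as for SOX10 with 18.4 CPM against 0.689 in NEC replicate 2. The part of neural crest cells in the NEC values was not tested.

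Mesendoderm genes had 23 ESC and 20 NEC members at 8 of 14 genes, with 16 shared. Of 7 tested genes 6 were called lower in NECs and none higher, against 9.68% lower over all tested genes. The median log2 fold change over the 7 was -2.27. HAND1, a mesoderm factor with 4, 3, 6 and 4 counts, had 7 ESC and 6 NEC members, all 6 shared, at low RNA in both cell types. GATA4, an endoderm and heart factor, had 3 and 5 members and fell by 2.27 (SE 0.42). All 7 tested genes had more counts in ESC replicate 2 than in ESC replicate 1, such as 1133 against 289 for EOMES and 139 against 52 for GATA4. This spread between ESC cultures stands beside their changes.

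Broadly expressed genes, chosen as a reference, had fewer members in NECs. Of 20, 10 had a member, with 29 in ESCs and 8 in NECs, and 8 genes had more in ESCs. Counting pairs absent from the merged lists too, the replicate lists held 14 and 10 short-range calls in ESCs. NEC replicate 1 held 7 and NEC replicate 2 held 2. RNA changed little, with a median log2 fold change of 0.23. The 1 gene called higher was EEF1A1, a translation factor with many near-identical copies, whose value is uncertain. RPLP0, a ribosomal stalk protein, had 10 ESC members, 4 in replicate 1 and 1 in replicate 2, and none in NECs, with 1514 and 1476 CPM in ESCs and 2535 and 2164 in NECs. GAPDH, a glycolytic enzyme, had 6 members in each cell type, all shared, with 6, 5, 5 and 2 in the replicates. RPLP0 thus had no NEC member while its RNA was no lower.

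**Figure D5:**
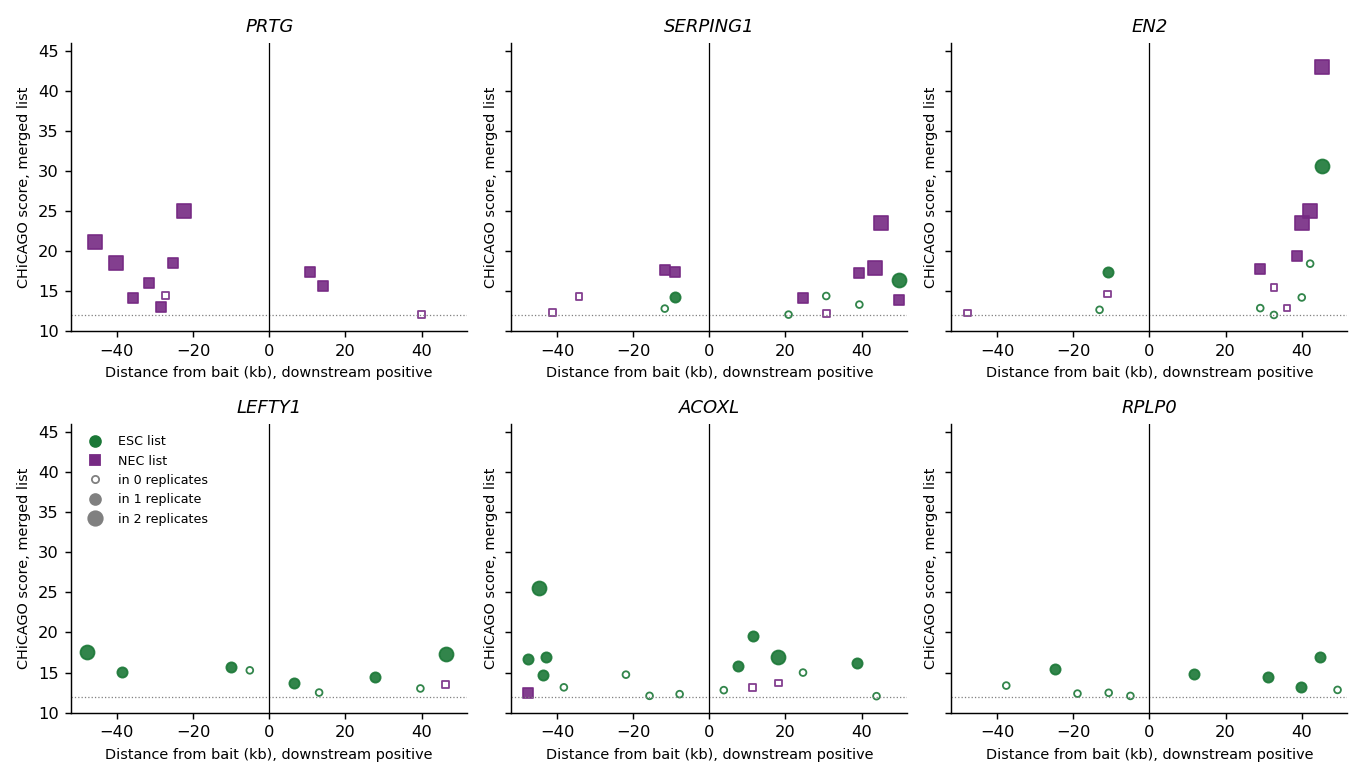
Merged CHiCAGO score of each member against its distance from the bait in kb, negative upstream of the gene, for 6 baits, with ESC members as green circles and NEC members as purple squares. Open symbols were in no replicate list, small filled ones in 1 and large filled ones in both, and the dotted line is the list minimum of 12. PRTG had NEC members only, RPLP0 ESC members only, and EN2 members of both cell types close together at its highest scores, 45.3 kb downstream.

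The genes with the largest changes at baits with a member, with log2 CPM averaging at least 5, mostly had few members. Besides PRTG, PAX6 and SOX1, they were COL2A1, a fibrillar collagen gene, with 2 members called in the NEC list and in NEC replicate 1, and counts of 47, 73, 11752 and 14626. RFX4, a transcription factor of the neural tube, had 1 NEC member with a score of 12.35 that was in no replicate, and 0.530, 0.566, 76.5 and 68.3 CPM. APOA1, an apolipoprotein gene, had 1 ESC member with 12.15 and rose by 6.33 (SE 0.25). These single members near the score minimum were not seen in any replicate for RFX4 and APOA1.

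The largest falls, besides LEFTY1, LEFTY2 and NODAL, were those of 3 noncoding genes. RP11-359M6.1 had 1852 and 3126 counts in ESCs and 0 and 1 in NECs, and 1 ESC member with 14.28. RP11-181K12.2 had 4873, 6508, 0 and 10 counts and 1 NEC member with 12.44 that NEC replicate 2 also called. The gene listed as MIR4454 had 2243, 2982, 1 and 10 counts, with 1 ESC member of 12.39 and another NEC member of 13.84. Members and RNA went in opposite directions at RP11-181K12.2 and APOA1.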

How the data were processed

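The authors mapped PCHi-C reads to GRCh37, removed duplicates and deposited the CHiCAGO score of each called HindIII fragment pair, for each replicate and for both replicates of a cell type combined, with 12 as the minimum. No read numbers accompany the scores. The deposited RNA-seq counts are whole reads per gene, aligned with TopHat2 2.0.8b per the labels and counted by the authors without regard to strand. Library totals were 19234087 and 25356382 in ESCs and 20793224 and 24323762 in NECs.

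Fragments were matched to HindIII fragments of GRCh37, and a gene was assigned to the bait that holds its start. The start was the outer end of the gene's annotated span on its strand. It can lie away from the promoter in use, which was not examined for any gene. Changes in RNA were tested by edgeR 4.0.16 under R 4.3.3 (filterByExpr with a minimum count of 10, which kept 17564 of 31017 genes, TMM, quasi-likelihood test, Benjamini-Hochberg). DESeq2 1.42.0, the authors' tool, was an alternative. Other steps used Python 3.11.15, pandas 2.3.3, numpy 2.4.6 and scipy 1.17.1. Scripts were tested on simulated data. With 2 replicates against 2, an exact two-sided permutation test cannot go below p = 0.333, so none was made, and p-values measure only the spread between these samples.

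Named items were the 5 baits with the most members and the 5 members with the highest score per cell type, the 6 strongest replicated members of each cell type alone and of all 4 replicates, the genes of 5 lists with a member, and the 6 largest and 6 smallest called changes among genes with a member whose log2 CPM averaged 5 or more. Members and lists were chosen with earlier results of these data known.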

Additional observations from a re-analysis of the deposited data

How the results depend on the processing

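Of 114 alternative values, 58 stayed within the limits set for them and 56 moved. A score of at least 15 left 2716 ESC and 2129 NEC members. Of these, 37.6% of ESC members were also in NECs and 47.9% of NEC members in ESCs, and 5.78% and 2.49% were in both replicates. At this score gene ends were called in 1.73% of cases in ESCs and 1.26% in NECs, against 0.522% and 0.435% of other fragments. A limit of 30 kb gave 45.5% of ESC members also in NECs and 5.46% of NEC members in both replicates. Leaving out other fragments only if a bait in the same merged list gave 12.7% and 7.03% in both replicates. Counting a PIR of the same bait within 10 kb as shared gave 59.7% and 62.1% in the other cell type. With a replicate list in place of the merged list of its cell type, members numbered 3023 to 3309 in ESCs and 2170 to 2817 in NECs, the share of ESC members in NECs ran from 9.49% to 56.5%, that of NEC members in ESCs from 19.5% to 62.8%, and gene ends were called in 1.73% to 2.25% of cases in ESCs and 1.48% to 1.59% in NECs. The gene-end alternatives and one with NEC replicate 1 alone were chosen after seeing the data.

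Without a fold limit 5529 genes were higher and 5209 lower, with 38.7% higher among genes with NEC-only members against 31.5% of all tested genes, and 32.8% lower among those with ESC-only members, against 29.7%, so the latter passed the share of all genes. It stayed below that share under DESeq2, other scaling, the lower count filter, the block and each left-out library. DESeq2 gave 11.1% and 5.81%, against 7.52% higher over all genes. Testing genes with at least 1 count gave 13.4% against 9.31%, and baits with 1 gene start gave 18.6%. Leaving out 1 RNA library gave 14% to 16.9% higher, with the lowest value without NEC replicate 1, against 9.88% to 12.3% over all genes. The medians of log2 CPM with and without a member were 3.66 and 2.08 in ESCs and 2.61 and 2.79 in NECs with a pseudocount of 0.1. Among genes with at least 10 counts they were 4.61 and 3.89, and 4.25 and 4.21. At baits with 1 gene start they were 3.51 and 1.76, and 2.20 and 2.5. At a score of at least 15 they were 4.0 and 2.60, and 3.05 and 3.20. Leaving out 1 ESC library gave ESC medians with a member of 3.66 to 3.72.

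With the replicate block, 1987 genes were higher and 1711 lower, with 16.0% and 7.53% for genes with NEC-only and ESC-only members. The replicate numbers do not pair the samples, since the deviations of same-numbered samples correlated by 0.074.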
